A study of Mus musculus with 9 samples.

Results

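The 41 genes described here are those for proteins that copy DNA and supply its building blocks, together with the transcription factor gene E2f1. They were chosen by name, with earlier results of these data known. They fall into 10 roles, from the loading of the replicative helicase to the synthesis of deoxynucleotides. All 41 were found among the 26202 genes of the deposited table, and all 41 were among the 12868 genes tested, which are those whose average CPM across the 9 libraries was 1 or more. CPM is the read count of a gene as a share of its library, here scaled between libraries by TMM (trimmed mean of M values).

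The RNA came from ATDC5 cells, a mouse chondrogenic line used as a dish model of the growth plate. There were 9 libraries in 3 groups of 3, namely control, acetate and ethanol. All groups shared a DMEM/F-12 medium with 5% serum, to which beta-glycerophosphate (10 mM), insulin-transferrin-selenium and sodium ascorbate (50 µg/mL) were added at the time of treatment. Acetate is a product of ethanol breakdown, and the series asks whether it carries part of the action of ethanol on bone genes and on the differentiation of chondrocytes. How much acetate or ethanol was given, for how long, and what control cells received is not stated in the labels. They do not say either whether replicates were separate cultures, and the p-values then measure only a spread between libraries that may be technical.

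Replication starts at origins where the origin recognition complex, CDC6 and CDT1 load the ring-shaped MCM helicase onto DNA in G1. CDC45 and GINS then turn this helicase on, polymerase alpha with primase lays down primers, and polymerases delta and epsilon extend them while held by the PCNA clamp. Ribonucleotide reductase, thymidylate synthase and thymidine kinase make the deoxynucleotides that are used up, and many of these genes are switched on together by E2F factors as cells enter S phase. In growing cartilage, chondrocytes divide in columns before they leave the cell cycle and enlarge.

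Library sizes recovered from the table were 28.7 to 41.9 M reads. A read was thus worth 0.0231 to 0.0348 CPM, and the least abundant of the 41 genes, Pole2, had a mean of 8.86 CPM over all libraries. Cartilage genes that define the line were present, since 7 of 7 (Col2a1, Acan, Sox9, Col9a1, Col10a1, Matn1 and Comp) passed the filter. Their summed level ranged from 9387 to 12370 CPM in control, 4991 to 5773 in acetate and 4477 to 5598 in ethanol, and Col2a1 was the highest of them in each group. The summed levels of blood cell, endothelial, epithelial and hepatocyte markers stayed at or under 2.69 CPM in every library, with Hbb-bs, Ttr and Cyp3a11 at 0 throughout. Acetate replicate 2 differed from the other libraries in a way that followed the GC content of transcripts, and the fold changes and counts it moves most are given with and without it. In RNA from whole cultures, a change in the share of cells that are copying DNA and a change in RNA per cell cannot be told apart.

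Sequences around the start sites were taken from RefSeq (GRCm38.p6), as windows from 250 bases before to 50 bases after the start. A window was found for 34 of the 41 genes. Each was searched on both strands for the E2F words TTTCCCGC, TTTCGCGC, TTTGGCGC and TTTGCCGC, which may overlap each other. At least 1 word was present in 14 of the 34 genes, or 41.2%, compared with 4.78% of the 10215 tested genes with a window. Over all 27025 genes with a window it was 2.6%, and counted per window 2.26% of all 32851 windows. The simple CCAAT box, also read on both strands, was present in 61.8% of the 34 genes and in 43.6% of the tested genes with a window. A match describes letters and is not evidence of binding.

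The windows that held at least 2 E2F words belonged to 4 subunits of the MCM helicase and to the clamp loader gene Rfc3. They are shown because they carry the densest matches, on the strand of the gene with the words in capitals.
Mcm3, chr1:20820263-20820562, minus strand: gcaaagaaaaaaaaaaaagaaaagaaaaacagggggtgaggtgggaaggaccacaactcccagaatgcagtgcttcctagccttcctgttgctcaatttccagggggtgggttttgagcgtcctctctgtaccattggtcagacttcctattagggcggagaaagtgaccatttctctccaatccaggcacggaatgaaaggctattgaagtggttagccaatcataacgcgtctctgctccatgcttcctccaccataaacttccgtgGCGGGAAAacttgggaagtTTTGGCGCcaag
Mcm5, chr8:75109259-75109558, plus strand: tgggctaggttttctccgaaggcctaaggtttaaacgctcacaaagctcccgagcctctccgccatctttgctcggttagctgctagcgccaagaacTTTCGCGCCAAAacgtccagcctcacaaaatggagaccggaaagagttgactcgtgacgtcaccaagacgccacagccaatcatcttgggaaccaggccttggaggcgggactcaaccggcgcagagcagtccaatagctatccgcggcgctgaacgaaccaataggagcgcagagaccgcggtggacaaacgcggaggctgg
Mcm6, chr1:128359656-128359955, minus strand: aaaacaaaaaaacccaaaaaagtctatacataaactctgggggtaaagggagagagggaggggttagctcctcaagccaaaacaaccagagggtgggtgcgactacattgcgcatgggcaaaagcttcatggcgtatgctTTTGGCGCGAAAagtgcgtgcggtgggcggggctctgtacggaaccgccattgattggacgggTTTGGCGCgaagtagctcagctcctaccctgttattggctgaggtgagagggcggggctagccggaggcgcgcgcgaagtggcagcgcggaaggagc
Mcm7, the second of 2 windows, chr5:138171834-138172133, minus strand: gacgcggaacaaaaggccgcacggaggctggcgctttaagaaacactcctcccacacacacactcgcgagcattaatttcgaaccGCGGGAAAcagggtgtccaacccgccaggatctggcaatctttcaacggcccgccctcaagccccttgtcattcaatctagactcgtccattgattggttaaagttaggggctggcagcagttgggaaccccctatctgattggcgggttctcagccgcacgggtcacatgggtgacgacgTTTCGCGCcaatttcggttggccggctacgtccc
Rfc3, chr5:151651159-151651458, minus strand: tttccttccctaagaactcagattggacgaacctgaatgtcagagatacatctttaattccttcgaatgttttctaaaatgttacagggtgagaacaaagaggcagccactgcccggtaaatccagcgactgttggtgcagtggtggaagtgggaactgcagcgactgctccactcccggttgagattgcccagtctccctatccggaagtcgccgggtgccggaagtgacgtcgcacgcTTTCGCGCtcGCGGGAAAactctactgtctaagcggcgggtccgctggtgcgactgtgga

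In Mcm5, a word of one strand runs into a word of the other and the first pair in Mcm6 is built the same way. Mcm6 holds a further copy nearer to the start, which makes 3 words in all. The 2 genes that rose with ethanol, Mcm10 and Tyms, had none of the words complete in their windows. The Mcm10 window ends in tttggcg, which is TTTGGCGC without its last letter, so a word across its edge would have been missed. Both windows are given for comparison.
Mcm10, chr2:5012742-5013041, minus strand: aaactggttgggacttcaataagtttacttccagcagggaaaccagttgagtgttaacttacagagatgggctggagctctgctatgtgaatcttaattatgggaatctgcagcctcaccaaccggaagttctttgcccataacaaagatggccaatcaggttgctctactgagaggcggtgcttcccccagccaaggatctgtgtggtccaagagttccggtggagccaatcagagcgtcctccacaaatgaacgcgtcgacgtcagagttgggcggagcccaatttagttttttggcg
Tyms, chr5:30073576-30073875, minus strand: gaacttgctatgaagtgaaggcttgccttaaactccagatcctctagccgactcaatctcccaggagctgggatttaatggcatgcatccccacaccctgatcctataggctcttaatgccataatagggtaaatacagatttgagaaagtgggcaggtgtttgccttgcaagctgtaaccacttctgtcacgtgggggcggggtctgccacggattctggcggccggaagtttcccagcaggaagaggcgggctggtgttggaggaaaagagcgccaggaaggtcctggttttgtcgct

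The 14 genes with a word and the 20 without one had median log2 fold changes of 0.14 and 0.11 with ethanol against control. With acetate against control the medians were 0.05 and 0.11. With ethanol the fold change was positive in 10 of the 14 and 18 of the 20, compared with 49.8% of all genes tested. E2f1 is among the 20, but its window (chr2:154569377-154569676) lies wholly inside the annotated gene. Its lack of a word thus does not describe the sequence before the annotated start. All fold changes here are differences of log2(CPM + 1), a scale that shrinks the change of weakly expressed genes. These medians are descriptions, and whether the words bear on the response was not tested.

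Levels can be compared between genes only per length, so CPM was divided by the length in kb of each gene's principal transcript. In control cells the 6 subunits of the MCM2-7 ring, which sit in the complex in equal number, ranged from 45.4 ± 4.55 CPM per kb for Mcm5 to 97.1 ± 3.86 for Mcm6 (SD, n = 3). Mcm2 followed at 81.9 ± 4.09, and Mcm4, Mcm3 and Mcm7 lay close together at 63.8, 63.2 and 54.8. The highest subunit was thus 2.14 times the lowest in control, 1.95 times in acetate and 1.88 times in ethanol. With the longest coding transcript in place of the principal one the ratio in control was 1.80.

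The GINS, clamp loader and polymerase alpha-primase genes spanned more, and the RPA genes 1.89 times. For the RPA genes the principal and the longest coding transcript have the same length, so the choice could not change this value. Among the GINS genes, Gins4 was at 37.8 CPM per kb in control and the other 3 were between 8.50 and 10.2, a span of 4.44 times. The clamp loader ranged from 15.4 for Rfc2 to 65.6 for Rfc1, the large subunit, and polymerase alpha-primase from 18.9 for Pola2 to 48.5 for Prim1, the catalytic primase subunit. RPA, the trimer that coats single-stranded DNA, had Rpa3 at 47.8 ± 7.12, Rpa1 at 40.7 and Rpa2 at 25.3. Of the origin recognition complex, Orc6 was at 59.5 and Orc1 at 4.56, which is a ratio of 13.1. Orc6 shares 6.93% of its exon bases with Vps35 on the opposite strand, which had a mean of 322 CPM. Pcna had the highest level per length of all 41 genes at 186 ± 10.3, and its protein forms a ring of identical subunits.

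Ribonucleotide reductase joins a large subunit, Rrm1, with a small one, Rrm2, whose protein is made in S phase and removed afterwards. Rrm1 exceeded Rrm2 per length by 1.79 times in control, 1.85 times in acetate and 1.67 times in ethanol.

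**Figure D1:**
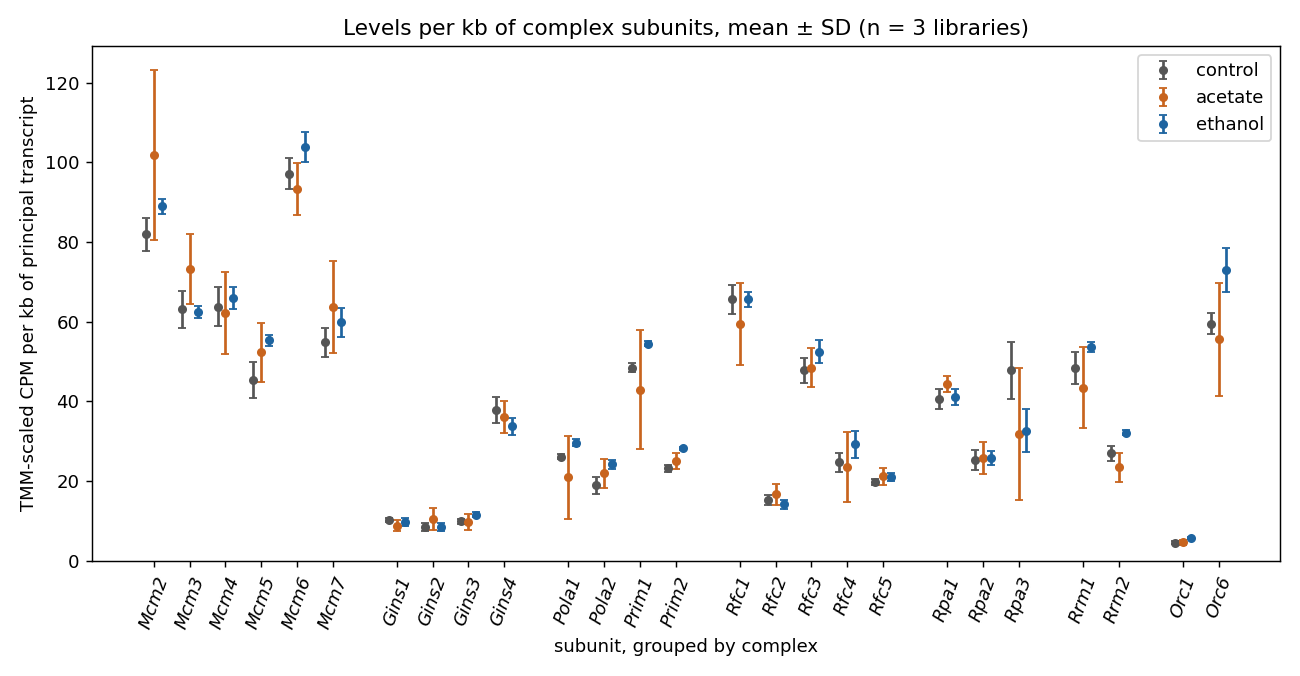
The y axis gives TMM-scaled CPM per kb of principal transcript for the subunits of 7 complexes, as mean ± SD of 3 libraries per group. The MCM2-7 subunits lie within a span of 2.14 times in control, while Gins4 and Orc6 stand well above the other subunits shown of their complexes, and the error bars of acetate are the widest for Mcm2, Rpa3 and Prim1.

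Summed over the 41 genes, the level was 3941 ± 181 CPM in control, 4087 ± 134 in acetate and 4244 ± 91.1 in ethanol (SD, n = 3). The 3 ethanol libraries, at 4145 to 4324 CPM, all lay above the 3 control libraries at 3733 to 4057, and the acetate libraries at 3979 to 4236 overlapped both. Median differences from the control mean were 0.12, 0.16 and 0.04 on the log2 scale in the ethanol libraries, 0.11, 0.12 and -0.00 in the acetate libraries and 0.04, -0.07 and 0.01 in the control libraries. The spread between genes within a library (SD) was 0.55 in acetate replicate 2 and 0.05 to 0.26 in the other 8 libraries.

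**Figure D2:**
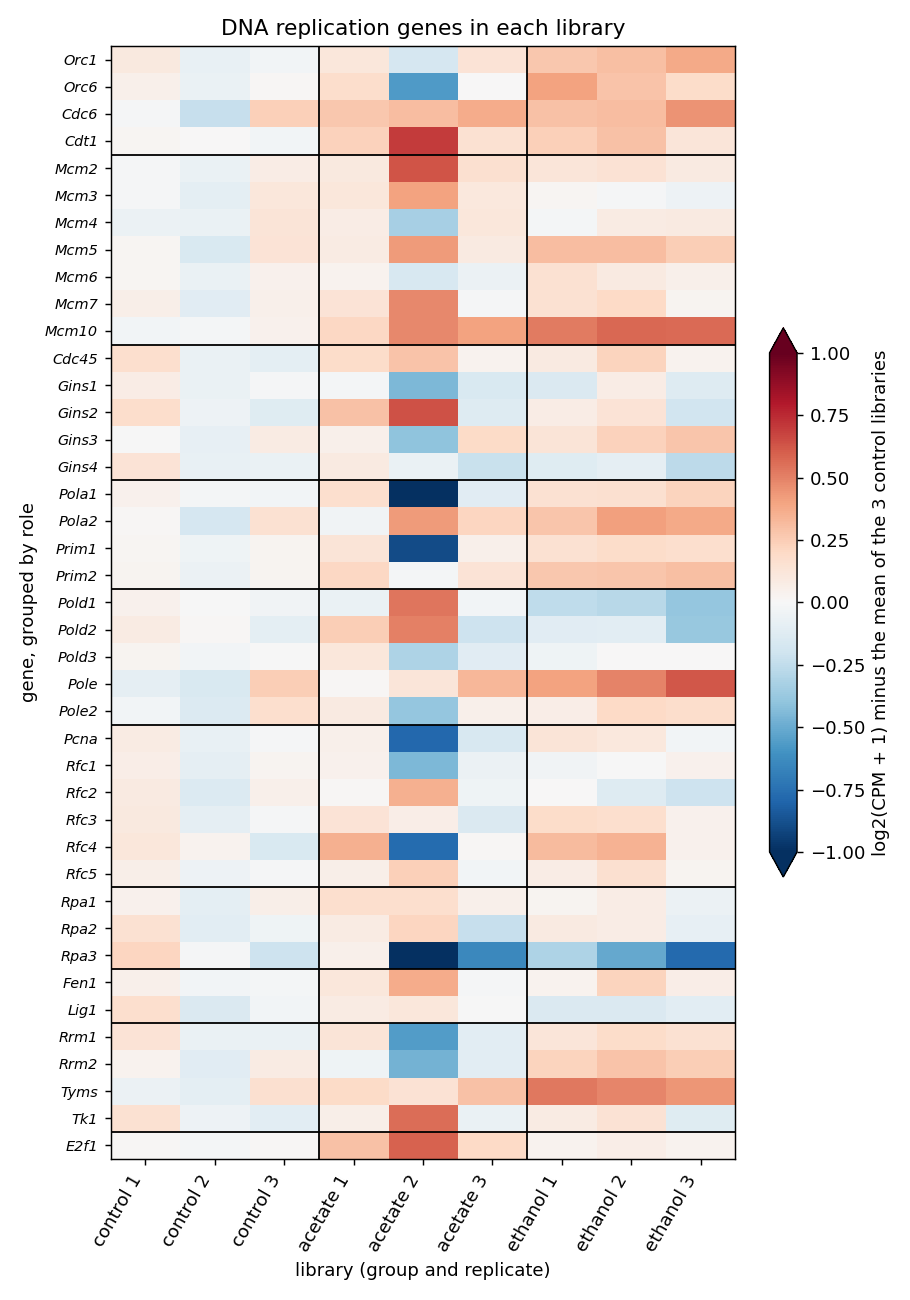
Colour gives log2(CPM + 1) minus the mean of the 3 control libraries for the 41 genes (rows, grouped by role) in the 9 libraries (columns). Mcm10, Tyms and Pole are red in all 3 ethanol libraries, and the column of acetate replicate 2 has the strongest reds and blues, with Pola1 and Rpa3 past the end of the scale.

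Ethanol raised 2 of the 41 genes past the threshold and lowered none. These were Mcm10, at 1.47 times the control level, and Tyms, at 1.40 times, on the CPM + 1 scale. The threshold is an adjusted p under 0.05 in limma, fitted over all 9 libraries and adjusted over all 12868 genes by the Benjamini-Hochberg method. The 2 genes are 4.88% of the 41, and 3.93% of all genes tested changed in either direction, 1.48% higher and 2.45% lower, so the share called was near the background. At an unadjusted p under 0.05 there were 7 of the 41 (17.1%), compared with 19.0% of all genes. Most other fold changes were positive without passing the threshold. The fold change was above 0 in 32 of 41 genes (78.0%) compared with 49.8% of all genes tested, and its median was 0.12 compared with -0.00. In 17 of the 41 (41.5%) the ethanol libraries all lay above the control libraries, against 20.1% of all genes, and in 4 (9.76%) all lay below, against 23.3%. The summed level of the cartilage markers was lower in every ethanol library (4477 to 5598 CPM) than in every control library (9387 to 12370 CPM). It was also lower in every acetate library (4991 to 5773 CPM). Col2a1 alone reached 9958 CPM in control, 4719 in acetate and 4379 in ethanol, so the sum mainly follows this gene. The part of this drop in the values of the replication genes was not tested.

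The number of calls depended on the libraries and settings of the fit. It fell to 0 without any 1 control or ethanol library, where 0.762% to 1.69% of all genes were called. Acetate replicate 2 enters the spread that the 3 groups share. Without it, 9 genes rose and 1 fell with ethanol (24.4% of the 41), while calls over all genes went to 21.5% (10.2% higher and 11.3% lower). With only the 6 control and ethanol libraries, 11 rose and 2 fell, and 12.1% of all genes were called higher and 14.6% lower. With the trend in GC content removed, 7 rose and 1 fell, and 7.62% of all genes were called higher and 8.23% lower. The genes past the threshold without acetate replicate 2 were Mcm10, Tyms, Pole, Pola2, Orc1, Orc6, Mcm5, Prim2 and Rrm2, all higher, and Pold1, which was lower.

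Acetate changed none of the 41 genes past the threshold in limma, and 1.00% of all genes tested were called. Higher calls made up 0.505% and lower calls 0.497% of all genes. Without acetate replicate 2 there were again 0 calls among the 41, with 3.48% of all genes called. At an unadjusted p under 0.05 there were 4 of the 41 (9.76%), compared with 14.6% of all genes, voom weights on the recovered reads also gave 0 calls, and the smallest adjusted p was 0.161 (Mcm10). The fold change was positive in 25 of 41 genes (61.0%) compared with 48.7% of all genes, with a median of 0.09 compared with -0.01. Without acetate replicate 2 it was positive in 28 genes, compared with 54.6% of all genes, with a median of 0.07 compared with 0.02. The sign turned in 13 of the 41 when this library was left out. In 5 genes, Cdc6, Cdt1, Mcm2, Mcm10 and E2f1, the acetate libraries all lay above the control libraries, which is 12.2% compared with 11.4% of all genes. In no gene did they all lie below, compared with 8.14% of all genes.

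The precision of these comparisons can be read from the intervals. Standard errors of the log2 fold changes ran from 0.10 to 0.34 with a median of 0.14. The 95% interval stayed within 1 log2 unit on either side of 0 for 39 of 41 genes with acetate and for 40 of 41 with ethanol. Rpa3 was outside in both, and Pola1 with acetate. Both comparisons use the same control libraries, so their fold changes are not independent of each other.

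**Figure D3:**
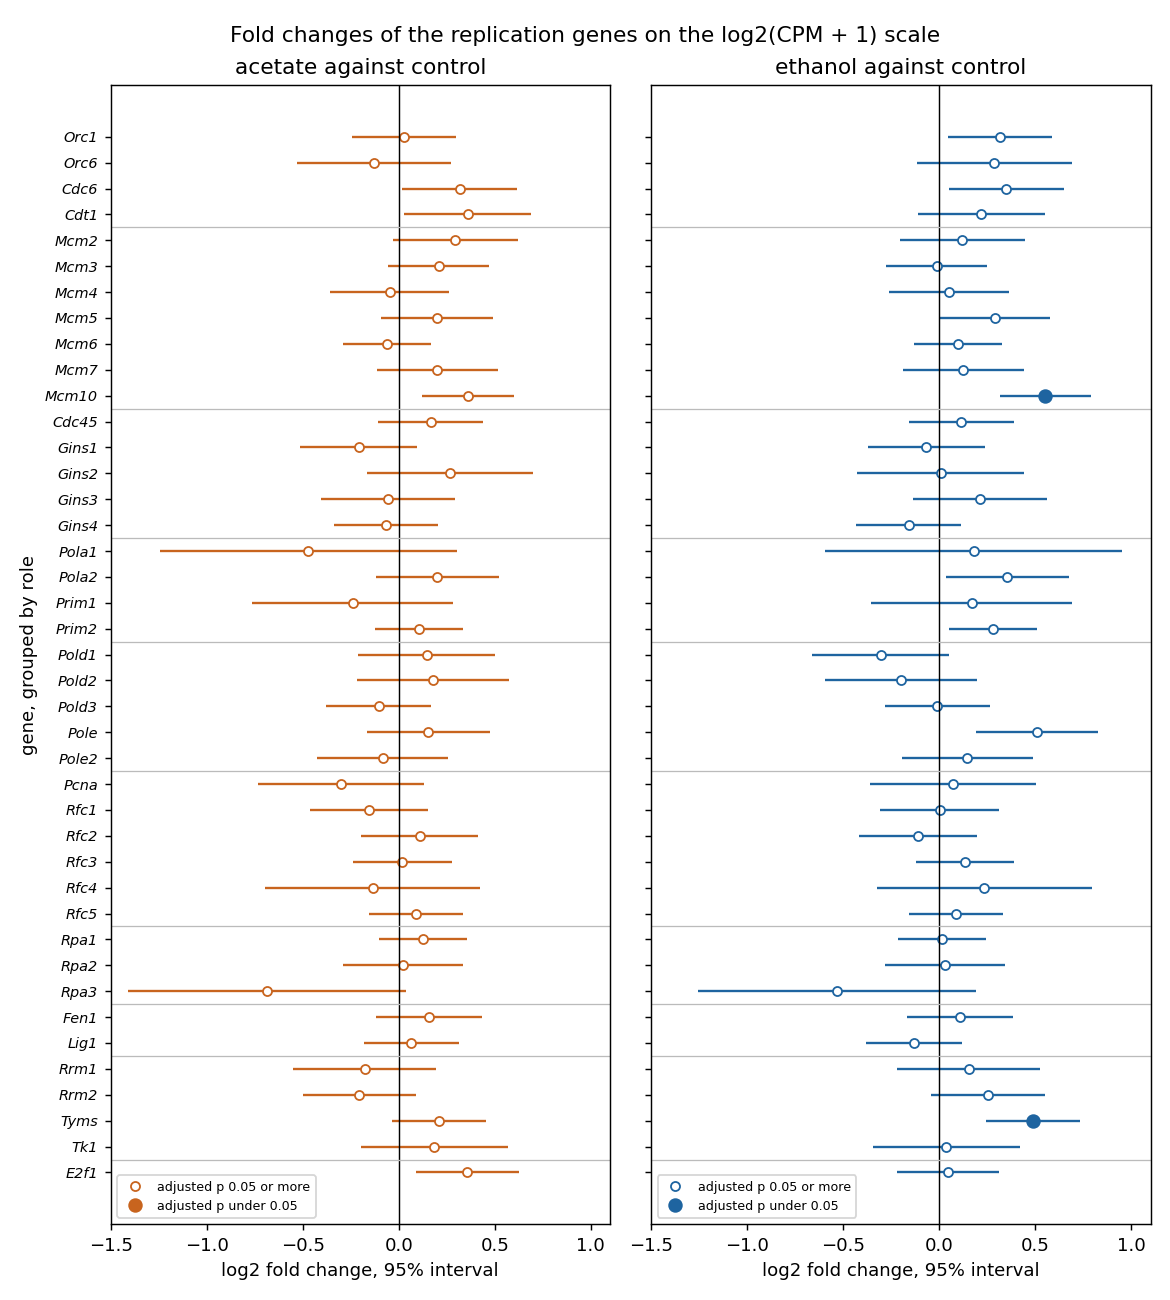
Points are log2 fold changes against control on the log2(CPM + 1) scale with 95% intervals, for acetate (left) and ethanol (right), with 1 row per gene grouped by role. Filled points mark an adjusted p under 0.05, which in the ethanol panel are Mcm10 (0.55) and Tyms (0.49), and no point is filled for acetate.

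Licensing factors come first in the cycle. Cdc6 codes for the ATPase that recruits the helicase with CDT1, and its levels were 29.0, 24.8 and 34.8 CPM in the control libraries, 35.4, 36.5 and 38.2 in acetate and 36.1, 36.4 and 40.3 in ethanol. All treated libraries lay above all controls, with fold changes of 0.32 ± 0.13 for acetate (log2 ± SE, adjusted p = 0.316 in limma) and 0.35 ± 0.13 for ethanol (0.198). Cdt1, whose protein is destroyed once S phase begins, was at 73.8, 73.1 and 71.3 CPM in control, 85.5, 119 and 80.9 in acetate and 86.1, 89.4 and 79.2 in ethanol. Acetate replicate 2 was far above every other library, and the acetate fold change of 0.36 ± 0.15 (adjusted p = 0.304) became 0.19 without that library. Orc1, the origin recognition subunit that varies over the cell cycle, was at 14.8, 13.0 and 13.5 CPM in control and 16.7, 17.1 and 18.2 in ethanol, without overlap (0.32 ± 0.12, adjusted p = 0.197). Orc6 was at 0.29 with ethanol and at -0.13 with acetate, and the latter turned to 0.09 without acetate replicate 2 and to 0.05 with the GC trend removed.

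Mcm10 codes for a replication initiation factor that is not part of the MCM2-7 ring and helps to start the loaded helicase. The gene (chromosome 2, 4989714 to 5012791 on GRCm38) was at 38.4, 38.7 and 40.3 CPM in the control libraries, 45.3, 54.9 and 51.9 in acetate and 56.4, 58.6 and 58.5 in ethanol. The control libraries lay close together and below every treated library. Ethanol raised Mcm10 by 0.55 ± 0.11 (log2 ± SE, adjusted p = 0.0247 in limma). The call was lost when any 1 control or ethanol library was left out (adjusted p = 0.0704 to 0.141), with a fold change of 0.54 to 0.57 over all libraries left out in turn. Over all its alternatives the adjusted p was 2.8e-14 to 0.141. The low ends of this and later ranges come from a fit with replicate blocks and without acetate replicate 2, in which 50.2% of all genes were called with ethanol, and are no measure of strength. With acetate the fold change was 0.36 ± 0.11 (adjusted p = 0.161, 0.00184 to 0.520 over its alternatives).

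None of the 6 subunits of the MCM2-7 ring passed. Mcm2 was at 274, 264 and 291 CPM in control, 296, 426 and 308 in acetate and 301, 306 and 293 in ethanol. Its acetate fold change of 0.30 ± 0.14 (adjusted p = 0.376) was 0.13 without acetate replicate 2, which had the highest value. The ethanol fold changes of the ring ran from -0.01 for Mcm3 to 0.29 for Mcm5, and those of acetate from -0.06 for Mcm6 to 0.30 for Mcm2. Without acetate replicate 2 the acetate values ran from -0.01 for Mcm6 to 0.13 for Mcm2.

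CDC45 and the GINS complex bind the MCM ring to form the working helicase. None of these 5 genes passed in either comparison, with fold changes from -0.16 (Gins4) to 0.21 (Gins3) with ethanol and from -0.21 (Gins1) to 0.27 (Gins2) with acetate. The acetate values of Gins1 and Gins2 were -0.09 and 0.08 without acetate replicate 2. Gins3 was at 25.0, 23.5 and 26.6 CPM in control, 25.9, 18.6 and 28.7 in acetate and 27.4, 29.5 and 30.5 in ethanol, and the lowest value of all was that of acetate replicate 2. Gins2 was at 37.5, 31.8 and 30.2 CPM in control, 40.7, 52.0 and 30.1 in acetate and 34.9, 36.4 and 28.8 in ethanol, and the groups overlapped. Exons of Gse1 on the opposite strand cover 67.3% of the exon bases of Gins2. The library kit keeps strand but the setting used in counting is not given, so reads of the 2 genes cannot be told apart here.

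Primers are made by polymerase alpha, with catalytic subunit Pola1 and regulatory subunit Pola2, joined to the primase subunits Prim1 and Prim2. All 4 fold changes were positive with ethanol, at 0.18, 0.36, 0.17 and 0.28, and the ethanol libraries of all 4 lay above their control libraries, as in 20.1% of all genes, though none passed the threshold. Pola2 was at 46.1, 40.6 and 50.8 CPM in control, 44.5, 61.8 and 53.1 in acetate and 55.6, 61.0 and 59.6 in ethanol (0.36 ± 0.14, adjusted p = 0.219). Pola1 was at 144, 138 and 138 CPM in control, 157, 49.8 and 129.6 in acetate and 156, 156 and 164 in ethanol. Acetate replicate 2 was far below every other library. Its acetate fold change of -0.47 ± 0.34 (adjusted p = 0.479) turned to 0.03 without that library.

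Polymerase epsilon extends the leading strand and polymerase delta mainly the lagging strand. Pole, the catalytic subunit of the first (chromosome 5, 110286306 to 110337474), was at 85.7, 82.2 and 109 CPM in control, 92.0, 99.4 and 116 in acetate and 121, 129.6 and 141 in ethanol. The ethanol libraries all lay above the control libraries, by 0.51 ± 0.14 (adjusted p = 0.0868). With replicate number as a block, Pole passed at an adjusted p of 0.0249, within a range of 1.74e-13 to 0.340 over its alternatives.

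For polymerase delta, 2 of 3 subunits had ethanol libraries below all controls, as in 23.3% of all genes, and none of the 3 passed. Pold1, the catalytic subunit, was at 59.3, 57.4 and 56.3 CPM in control, 55.0, 83.8 and 56.4 in acetate and 48.1, 47.5 and 43.9 in ethanol. Its ethanol libraries lay below all controls, with a fold change of -0.31 ± 0.16 (adjusted p = 0.336, and 0.0137 without acetate replicate 2, which had the highest value, within 3.97e-05 to 0.689 over its alternatives). Pold2, an accessory subunit, was at 86.7, 82.3 and 76.3 CPM in control, 97.0, 116 and 70.6 in acetate and 75.4, 75.8 and 62.7 in ethanol. Its ethanol libraries also lay below the controls (-0.20 ± 0.18, adjusted p = 0.608). Pold3 and Pole2 were at -0.01 and 0.15 with ethanol, with both groups overlapping.

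The sliding clamp PCNA is loaded by the RFC complex and holds the polymerases on DNA. Pcna (chromosome 2, 132249162 to 132253314) was at 299, 268 and 279.8 CPM in control, 291, 163 and 252 in acetate and 309, 303 and 276 in ethanol. The libraries were close together except for acetate replicate 2, which was the lowest. Pcna differed from control by -0.30 ± 0.19 with acetate (adjusted p = 0.445), -0.06 without that library, and 0.07 ± 0.19 with ethanol. Of the 5 RFC genes none passed, with fold changes from -0.16 to 0.11 with acetate (-0.01 to 0.18 without acetate replicate 2) and from -0.11 to 0.23 with ethanol. Rfc4 was at 32.9, 31.1 and 27.1 CPM in control, 38.9, 17.3 and 30.5 in acetate and 38.0, 38.8 and 31.2 in ethanol, and shares 12.7% of its exon bases with Eif4a2 on the opposite strand, which had a mean of 369 CPM. Its sign with acetate turned from -0.14 to 0.18 without acetate replicate 2.

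Rpa3 codes for the smallest subunit of the single-strand binding protein RPA. It was at 37.0, 31.6 and 27.5 CPM in control, 33.0, 10.9 and 19.997 in acetate and 25.4, 22.1 and 18.2 in ethanol. Values varied within each group, and all ethanol libraries lay below all control libraries. The fold change was -0.53 ± 0.32 with ethanol (adjusted p = 0.419) and -0.68 ± 0.32 with acetate (0.36), the latter -0.30 without acetate replicate 2. Rpa1 and Rpa2, its partners in the trimer, were at 0.02 and 0.03 with ethanol and at 0.13 and 0.02 with acetate, and Rpa2 turned to -0.08 with acetate without that library.

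Okazaki fragments are trimmed by the flap nuclease FEN1 and sealed by DNA ligase I. Fen1 was at 58.7, 55.7 and 55.8 CPM in control, 61.5, 73.7 and 56.4 in acetate and 58.1, 66.2 and 59.4 in ethanol, and the antisense gene Gm10143 covers 78.8% of its exon bases. Lig1 was at 61.2, 49.1 and 53.3 CPM in control, 57.6, 58.9 and 54.3 in acetate and 49.0, 49.0 and 50.5 in ethanol. In both genes each treatment overlapped with control.

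Thymidylate synthase, the product of Tyms, makes the thymidine monophosphate needed for DNA. The gene (chromosome 5, 30058202 to 30073617) was at 53.2, 51.9 and 62.1 CPM in control, 63.4, 61.5 and 68.3 in acetate and 80.6, 78.3 and 75.7 in ethanol. Every ethanol library lay above every other library, and acetate overlapped with control through control replicate 3. Ethanol raised Tyms by 0.49 ± 0.11 (adjusted p = 0.0428). The call was lost without any 1 control or ethanol library (adjusted p = 0.0607 to 0.217), without acetate replicate 1 (0.0515) and with a filter of 5 CPM (0.0505), within 7.3e-12 to 0.217 over its alternatives. With acetate the fold change was 0.21 ± 0.11 (adjusted p = 0.398).

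Rrm2, the S-phase subunit of ribonucleotide reductase (chromosome 12, 24708241 to 24714146), was at 60.4, 54.5 and 62.6 CPM in control, 57.4, 42.4 and 54.8 in acetate and 69.1, 72.1 and 70.3 in ethanol. Ethanol libraries lay above all others, and acetate overlapped with control. Rrm2 differed from control by 0.25 ± 0.13 with ethanol (adjusted p = 0.339) and -0.20 ± 0.13 with acetate (0.446), the latter -0.07 without acetate replicate 2. Rrm1 was at 0.15 with ethanol and -0.18 with acetate. Tk1, the thymidine kinase of the salvage route, was at 0.04 and 0.19. Without that library the acetate values of Rrm1 and Tk1 were 0.01 and -0.00.

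E2f1 codes for an activating E2F factor (chromosome 2, 154559407 to 154569892). It was at 85.6, 83.8 and 85.5 CPM in control, 104, 128 and 97.4 in acetate and 87.0, 88.9 and 87.2 in ethanol. Every acetate library lay above every control and ethanol library, the highest being acetate replicate 2. The fold change was 0.36 ± 0.12 with acetate (adjusted p = 0.213, 0.0119 to 0.567 over its alternatives) and became 0.24 without acetate replicate 2 and 0.18 with the GC trend removed. The ethanol libraries lay just above the narrow range of the controls, at 0.05 ± 0.12 (adjusted p = 0.898).

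**Figure D4:**
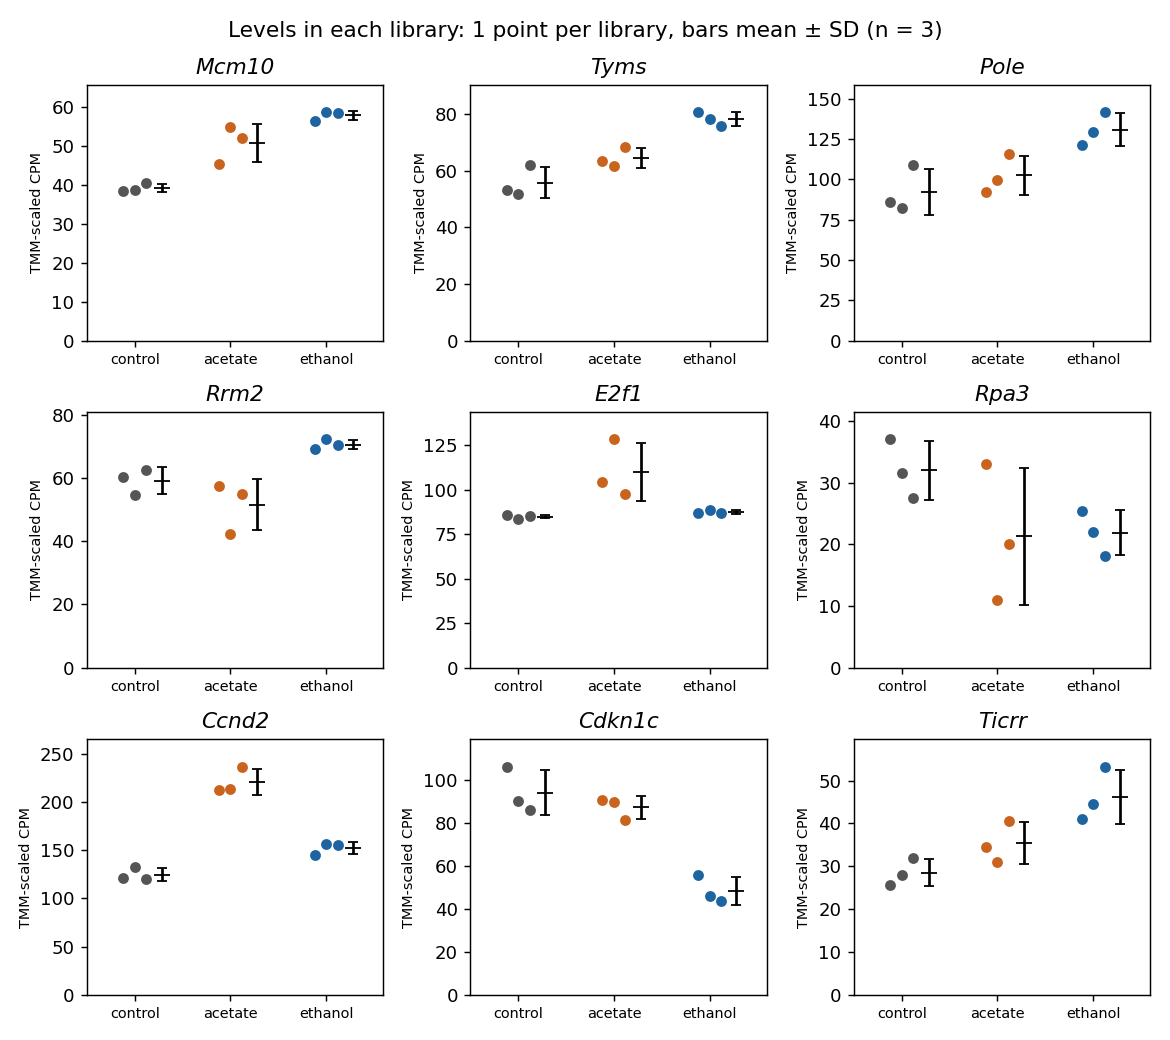
Each panel plots 1 gene in TMM-scaled CPM, with 1 point per library and the mean ± SD of 3 libraries per group beside it. Mcm10, Tyms, Pole, Rrm2 and Ticrr are highest in the ethanol libraries, E2f1 and Ccnd2 in the acetate libraries, and Cdkn1c is lowest in the ethanol libraries.

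Acetate and ethanol were also compared directly. None of the 41 genes passed in limma, with 3.73% of all genes called (2.84% higher and 0.886% lower), 7 of the 41 (17.1%) at an unadjusted p under 0.05 compared with 21.1% of all genes, and 0 calls with voom. Rrm2 came closest, at -0.46 ± 0.13 in acetate relative to ethanol (log2 ± SE, adjusted p = 0.0959), and passed as the only member without acetate replicate 2 (-0.32, adjusted p = 0.0385, with 8.61% of all genes called). With the GC trend removed, Rrm2 (adjusted p = 0.00988) and Tyms (0.0372) passed and 10.2% of all genes were called, within 0.000119 to 0.297 for Rrm2 and 0.00358 to 0.414 for Tyms over their alternatives. Tyms was at -0.28 ± 0.11 (adjusted p = 0.197), Pole at -0.35 ± 0.14 (0.203), Mcm10 at -0.19 ± 0.11 (0.31) and E2f1 at 0.31 ± 0.12 (0.184, and 0.20 on the log2 scale without acetate replicate 2). The acetate libraries of 9 genes all lay below the ethanol libraries and those of 4 genes all above, against 12.5% and 15.3% of all genes. The fold change was positive in 16 of 41 genes (39.0%), compared with 48.9% of all genes. The median over the 41 genes was -0.10, compared with -0.01 over all genes, and moved to -0.05 without acetate replicate 2 and to -0.01 with the GC trend removed. A threshold passed against control with ethanol and missed with acetate therefore does not show that Mcm10 or Tyms responded differently to the 2 treatments.

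Further genes of the same process were read from 9 lists, all of whose genes were tested. The lists too were chosen with earlier results of these data known. Ethanol raised 1 of 17 other origin licensing and firing factors, 0 of 20 other fork and clamp genes, 0 of 9 chromatin assembly genes, 0 of 16 E2F and pocket protein genes, 0 of 16 checkpoint genes and 0 of 12 mitosis genes, and lowered none of them, compared with 1.48% of all genes called higher. Their median fold changes with ethanol were 0.15, 0.12, 0.21, 0.26, 0.21 and 0.11 in that order, compared with -0.00 for all genes. The 14 other deoxynucleotide genes and the 23 genes of purine, pyrimidine and one-carbon synthesis had medians of -0.04 and 0.10 and no calls. Without acetate replicate 2, when 10.2% of all genes were called higher, calls higher with ethanol were 5 of 17 licensing factors, 2 of 20 fork genes with 1 lower, 2 of 9 chromatin genes, 7 of 16 E2F genes, 7 of 16 checkpoint genes and 2 of 12 mitosis genes. With the GC trend removed, when 7.62% were called higher, they were 4, 1, 1, 6, 2 and 2 in the same order. The deoxynucleotide list had 1 higher and the purine list 1 higher and 1 lower without that library.

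Genes behind these counts were named after their values were seen, with log2 fold changes from the fit without acetate replicate 2. The E2F list had E2f2 (0.81), which codes for another activating E2F factor, the repressor genes E2f6 (0.29) and E2f7 (0.39), the pocket protein gene Rbl1 (0.24), and Lin9 (0.49), Lin54 (0.55) and Mybl2 (0.57) of the MuvB and B-MYB complex. The checkpoint list included Blm (0.22), Atrip (0.42) and Brca2 (0.55). The licensing list had Ticrr, Mtbp, Recql4, Dbf4 and Orc2, the fork list Atad5 and Clspn with Pold4 lower (-0.52), the chromatin list Chaf1b and Hells and the mitosis list Bub1 and Foxm1. Samhd1 and Shmt1 were higher and Ctps2 was lower.

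With acetate none of these 8 lists had a call, compared with 1.00% of all genes, and their medians lay between -0.12 and 0.17. The medians lay between -0.07 and 0.14 without acetate replicate 2, and Blm was the only call. The licensing median turned from -0.12, with 4 of 17 positive, to 0.10 with 12 of 17 positive, and was 0.07 with the GC trend removed. With the GC trend removed the calls were Shmt1 (0.44) and Mthfd1l (-0.36).

 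The licensing factor that rose with all libraries in the fit was Ticrr, whose protein (treslin) brings CDC45 to the helicase (chromosome 7, 79660196 to 79698148). It was at 25.6, 27.96 and 32.0 CPM in control, 34.6, 31.0 and 40.6 in acetate and 41.1, 44.4 and 53.2 in ethanol, with ethanol above all controls. Its fold change with ethanol was 0.68 ± 0.15 (adjusted p = 0.0395), and the call was lost without any 1 control or ethanol library (0.0698 to 0.200) and without a filter on low values (0.0519), within 9.63e-20 to 0.200 over its alternatives.

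Among 19 cyclins, kinases and inhibitors of the step from G1 to S, acetate raised 2 and ethanol lowered 1. Over all genes, 0.505% were called higher with acetate and 2.45% lower with ethanol. Ccnd3 was also called lower with ethanol without acetate replicate 2 (-0.35, adjusted p = 0.0172 in limma) and with the GC trend removed (-0.325, 0.0365). Those fits called 11.3% and 8.23% of all genes lower. Ccnd2, a cyclin D that drives cells through G1 (chromosome 6, 127125162 to 127152193), was at 121, 133 and 120.3 CPM in control, 212, 213 and 237 in acetate and 145, 156 and 155 in ethanol. The 3 groups did not overlap, with acetate highest. It rose with acetate by 0.82 ± 0.10 (adjusted p = 0.0124) and was higher in acetate than in ethanol by 0.53 ± 0.10 (0.0225). With ethanol against control it was at 0.28 ± 0.10 (0.173). That comparison passed without acetate replicate 2 (0.0253), when 10.2% of all genes were called higher. The rise with acetate was not past the threshold in the 6 libraries alone (adjusted p = 0.104), without control replicate 1 (0.105) or without control replicate 3 (0.0771), within 1.68e-27 to 0.105 over its alternatives. The difference from ethanol was not past it in the 6 libraries alone (0.105), without control replicate 1 (0.0572) or without ethanol replicate 1 (0.111), 2 (0.103) or 3 (0.0892), within 7.05e-13 to 0.111.

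Ccnd1, the related cyclin D1 gene (chromosome 7, 144929931 to 144939925), was at 105, 104 and 111 CPM in control, 142, 161 and 158 in acetate and 116, 121 and 119 in ethanol. It rose with acetate by 0.52 ± 0.10 (adjusted p = 0.0476, 9.45e-09 to 0.262 over its alternatives). The call was lost with pseudocount 0.1 (0.0511), a filter of 5 CPM (0.0662), median-of-ratios scaling (0.0502), voom weights (0.0536), the GC trend removed (0.0508) and the 6 libraries alone (0.253). It was also lost without any 1 control or ethanol library (0.104 to 0.262) and without acetate replicate 3 (0.126). Exons of LTO1, on the opposite strand, cover 23.4% of its exon bases.

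Cdkn1c codes for p57, an inhibitor of the G1 cyclin-dependent kinases that is present in chondrocytes leaving the cell cycle (chromosome 7, 143458339 to 143461050). It was at 106, 90.0 and 86.0 CPM in control, 90.8, 89.6 and 81.2 in acetate and 55.7, 46.1 and 43.4 in ethanol. The ethanol libraries lay far below the other 6. Ethanol lowered it by -0.95 ± 0.13 (adjusted p = 0.00662, and 0.0485 at most over its alternatives), which is 0.519 times the control level on the CPM + 1 scale. Acetate left it at -0.10 ± 0.13 (adjusted p = 0.667), and the direct difference of acetate from ethanol was 0.84 ± 0.13 (0.00994). This difference missed the threshold in the 6 libraries alone (0.0557) and without ethanol replicate 2 (0.0673) or 3 (0.0539), within 6.08e-22 to 0.0673 over its alternatives. The antisense gene Gm44732 covers 30.7% of its exon bases.

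The values of acetate replicate 2 followed the GC content of the transcripts. Its difference from the mean of acetate replicates 1 and 3 correlated with GC content at a Pearson r of 0.87 and a Spearman rho of 0.91 over the 41 genes, and at r = 0.81 over 12741 genes, which all come from the same libraries and are not independent. The 7 genes under 45% GC were all lower in this library, by a median of -0.95 on the log2 scale. The 15 genes from 45% to under 50% had a median of -0.19 and the 19 genes of at least 50% a median of 0.34. Pola1, Prim1, Rfc4 and Rpa3, at 41.8%, 44.3%, 44.6% and 37.3% GC, were the lowest there, and Pold1, at 60.7%, the highest. Mcm10 and Tyms, at 49.9% and 50.6%, lay near the middle of this range.

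**Figure D5:**
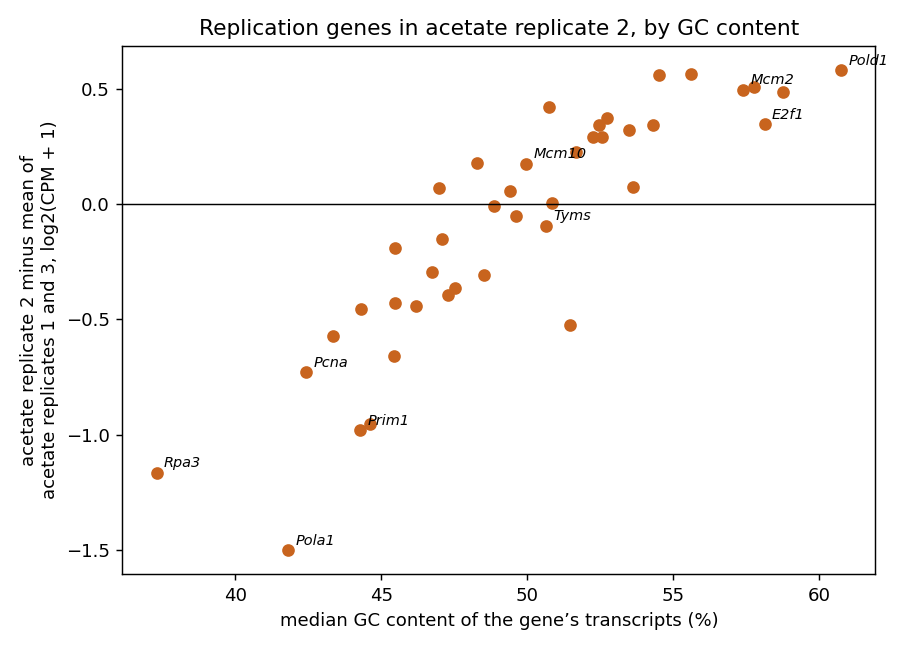
The x axis is the median GC content of a gene's transcripts in percent, and the y axis is log2(CPM + 1) in acetate replicate 2 minus the mean of acetate replicates 1 and 3, with 1 point for each of the 41 genes. Points rise from left to right (Pearson r 0.87), from Pola1 and Rpa3 at the lower left to Pold1 at the upper right.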

How the data were processed

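RNA sequencing was read from 1 deposited table of 26202 genes in 9 libraries. The authors deposited log2 values, which the table's own name and its totals put on a TMM-scaled CPM scale. Per the submitters' processing notes, the build was mm10 and the tools named were STAR 2.7.8a, Bowtie2 2.2.5 and Partek, while the counting step is not given. A protocol in the labels on mouse livers and HepG2 cells was ignored. The floor of each library, as an offset of 1e-05 read gives, was subtracted to obtain CPM. Recovered library sizes were 28.7 to 41.9 M reads. Between 85.7% and 87.4% of the low values of a library came out as whole reads (tolerance 0.02 read), and no count model was used as the main test.

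The log2(CPM + 1) of genes that averaged 1 CPM or more was fitted in R 4.3.3 by limma 3.58.1. All 9 libraries entered, each group had its own mean, variances were moderated with a trend, and p-values were adjusted over all tested genes (Benjamini-Hochberg). The procedure was tested on simulated data. The members, lists and rules were chosen with earlier results of these data known. Values in every library are given for members past the threshold, for the member with the largest fold change of each role in either comparison with control, for E2f1, Pcna, Mcm2, Rrm2 and Tyms, and for up to 4 genes past the threshold of each other list. Orc1 and Pold1 were added after their values were seen.

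GENCODE M21 (GRCm38, the same assembly as mm10) gave positions, GC content and transcript lengths. Of the table's symbols 24919 were in it, 416 were found by a synonym and 867 had no entry. Python 3.11.15 and pandas 2.3.3 were used for tables.

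Replicate numbers come from the labels. Between same-numbered libraries of ethanol and control, deviations from group means correlated at 0.55, 0.36 and 0.67. Those of different numbers correlated at 0.25 at most. For acetate and ethanol the same-numbered values were 0.15, 0.25 and 0.61, while acetate replicate 2 and ethanol replicate 1 correlated at 0.18. The numbers thus track a shared spread for ethanol and control, and less clearly for acetate and ethanol. The main fit did not use them. Alternatives covered pseudocount, filter, scaling, libraries in the fit, replicate block, GC trend, voom weights and each library left out.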

Additional observations from a re-analysis of the deposited data

How the results depend on the processing

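Counts of members past the threshold with ethanol went from 2 to 1 with a filter of 5 CPM, to 13 with only the 6 libraries compared (26.8% of all genes called), to 8 with the GC trend removed (15.8%), to 13 with that and the replicate block (36.1%), and ranged from 0 to 10 with 1 library left out, 10 being without acetate replicate 2 (21.5%). With the replicate block alone the count with ethanol was 3 (7.32% of the members and 8.35% of all genes), and this block changed no other call than that of Pole among the members. Without acetate replicate 2 and with the replicate block it was 20, with 50.2% of all genes called. For acetate against control the count of 0 became 3 (7.32%) with the GC trend removed and the replicate block, where 17.6% of all genes were called, and 7 (17.1%) without acetate replicate 2 and with the replicate block, where 21.5% were. For acetate and control the same-numbered libraries correlated at 0.25, -0.10 and 0.41. Acetate replicate 1 and control replicate 2 correlated at 0.26, so a pairing by number is not clear there. For acetate against ethanol the count of 0 became 2 with the GC trend removed (10.2% of all genes), 7 (17.1%) with that and the replicate block (29.5% of all genes), 11 (26.8%) without acetate replicate 2 and with the replicate block (33.1% of all genes), and ranged from 0 to 1 with 1 library left out. The median of -0.10 for acetate against ethanol moved to -0.011 with the GC trend removed, with or without the replicate block. Median-of-ratios scaling, pseudocount 0.1, no filter and voom gave the same counts as reported in all 3 comparisons.

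Signs that turned belonged to genes that had not passed in the main fit. For acetate against control, removing the GC trend (with or without the block) gave -0.0077 for Pold2, 0.0538 for Pcna, 0.0905 for Rfc4 and -0.0403 for Lig1. Leaving out acetate replicate 2 gave 0.121 for Gins3, 0.0291 for Pola1 and 0.1819 for Rfc4, and with the replicate block 0.1044, 0.0199 and 0.2194. The value of 0.2194 for Rfc4 passed (adjusted p = 0.04613 in limma), in a fit that called 21.5% of all genes. Over all libraries left out in turn, the acetate values ran from -0.1777 to 0.121 for Gins3, -0.7911 to 0.0291 for Pola1, -0.3793 to 0.1819 for Rfc4 and -0.0057 to 0.1499 for Lig1, and the ethanol values of Gins2 from -0.0564 to 0.1057. For acetate against ethanol the GC trend removed gave 0.0159 for Pcna and 0.5518 for Rpa3, and Rpa3 ran from -0.521 to 0.2358 with 1 library left out and was at 0.2394 without acetate replicate 2 and with the block. The cause was not tested. Doses, times and the counting step are not given in the sources used here, and 3 libraries per group limit what could be detected.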
